A study of Homo sapiens with 4 samples.

Results

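The clustered protocadherins were examined in SY5Y neuroblastoma cells given the SETD8 inhibitor SGSS05-NS, as the labels write the compound, or its solvent. The members were all protein-coding genes whose name starts with PCDHA, PCDHB or PCDHG followed by a member number or a letter code of the A, B or C subgroup. They came to 51 of the 57820 gene rows in the count files, with 15 in the alpha cluster, 15 in the beta cluster and 21 in the gamma cluster. The names PCDHB16 and PCDHGB5 also meet this rule, but their identifiers in the annotation used matched no gene row, so they are not analysed here.

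Clustered protocadherins are cell surface adhesion proteins of the cadherin superfamily, and neurons are known to express different combinations of them that take part in self-recognition, dendrite and axon branching and synapse formation. In the alpha and gamma clusters each member has its own large first exon with its own promoter, and this variable exon is spliced to a set of constant exons shared by the cluster, which encode a common cytoplasmic tail. The beta genes have no constant exons, and each is a single large exon or nearly so. Most of these promoters hold a conserved sequence element built around the letters CGCT, and their choice is known to involve CTCF, cohesin and DNA methylation.

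SY5Y is an established human neuroblastoma line, and the labels give its MYCN genotype as wild type. Cells received DMSO (2 libraries) or 3 μM SGSS05-NS (2 libraries), and RNA was taken after 12 h. The compound's name and the dose are those of the labels, while the study writes SGSS05-NS3 and its text gives more than 1 dose for these cells, so which dose the treated libraries received is uncertain. SETD8 is the enzyme that adds a single methyl group to lysine 20 of histone H4. The question put to the libraries was which transcripts changed with the compound. The study also reports that SGSS05-NS3 inhibits other methyltransferases at micromolar concentrations. The fragments assigned to genes on the transcript strand numbered between 21463105 and 25350204 per library. All 12 markers of noradrenergic neuroblastoma cells had counts, but TH had only 2 and 2 in DMSO and 1 and 0 with SGSS05-NS. Their summed level in CPM (counts scaled to a common library size) was 4055 and 4307 under DMSO and 2465 and 2215 under SGSS05-NS. Of the 11 tested, 8 fell at an adjusted p under 0.001 in edgeR's quasi-likelihood test, against 8.14% lower over all genes tested. In a single line, fewer cells of a type and less RNA per cell cannot be told apart. Fibroblast markers summed to between 74.9 and 80.2 CPM in DMSO and between 47.8 and 55.2 with SGSS05-NS, mostly PDGFRB, with DCN and PRRX1 at 0. Epithelial markers summed to between 2.39 and 4.38 CPM with KRT5 and KRT14 at 0, and no immune marker passed 0.180 CPM.

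All members lie on the plus strand of chromosome 5 of GRCh37. The alpha genes span chr5:140165721-140391932, the beta genes chr5:140430959-140628933 and the gamma genes chr5:140710081-140892544. The exon models of the clusters differ in how many bases a gene has to itself, and this affects which fragments could be counted. The lengths given are those of GENCODE 44, while the fragments were assigned with GENCODE 19. Differences between the exons of these releases were not examined. A fragment that overlaps the exons of more than 1 gene was set aside as ambiguous and counted for none. All 15 beta genes shared no base with another member, and their 2750 to 7973 exonic bases were all their own. In the alpha cluster 2370 to 10557 bases per gene were unshared, a median of 53.4% of the exonic length, and in the gamma cluster 2459 to 5752, a median of 56.2%. The counts of alpha and gamma genes are therefore counts from their unshared bases, which need not be the variable exon alone. On these exon models a fragment from the constant exons could not be counted for any of them.

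The first constant exon is 59 bases long in both clusters and belongs to 15 of 15 alpha genes and 21 of 21 gamma genes. Both copies are shown because they are the stretch that ties all members of a cluster together and that the counting left out. They lie at chr5:140358534-140358592 and chr5:140874374-140874432 of GRCh37, both on the plus strand, and are printed in lower case with no part marked.
alpha constant exon 1: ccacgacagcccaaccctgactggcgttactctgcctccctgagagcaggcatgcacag
gamma constant exon 1: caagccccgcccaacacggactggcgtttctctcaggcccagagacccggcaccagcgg
The pair had the same base at 39 of 59 positions (66.1%), while the second constant exons, 89 bases each, had the same base at 32.6%. The last constant exon measured 2721 bases in 13 of 15 alpha genes and 2029 bases in all 21 gamma genes.

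Of the members, 45 had an entry among the RefSeq promoter windows (built on GRCh38.p14), each with 250 bases before and 50 bases after the gene start, and those printed were placed on GRCh37 by an exact match. The letters CGCT stood on the gene's strand in 12 of 13 alpha, 13 of 13 beta and 19 of 19 gamma windows, against 54.3% of all 35116 promoter windows on that strand and 70.0% on either strand. They ended between 25 and 100 bases before the start in 12 of 13 alpha, 11 of 13 beta and 18 of 19 gamma windows, against 22.7% of all windows. The letters around them differed by cluster, and each 8-letter motif searched on both strands contains CGCT. ATGTCGCT was in 9 of 13 alpha windows and 0.234% of all windows, GTGGCGCT in 12 of 13 beta windows and 1.15% of all, and GCCGCTGT in 10 of 19 gamma windows and 1.63% of all. None of these 8-letter motifs occurred in a window of another cluster. These motifs were taken from the members' own windows, so the shares describe the members and test nothing.

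The windows of 40 bases printed here, all on the plus strand, pair promoters of genes with no counts with promoters of genes with counts, and the capitals mark CGCT.
PCDHA4, chr5:140186562-140186601: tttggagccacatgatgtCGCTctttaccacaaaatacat
PCDHA12, chr5:140254827-140254866: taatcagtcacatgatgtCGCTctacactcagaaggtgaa
PCDHAC1, chr5:140305803-140305842: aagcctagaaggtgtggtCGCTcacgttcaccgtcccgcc
PCDHB2, chr5:140474127-140474166: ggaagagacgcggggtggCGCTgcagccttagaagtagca
PCDHB3, chr5:140479975-140480014: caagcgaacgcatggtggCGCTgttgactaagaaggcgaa
PCDHB9, chr5:140566646-140566685: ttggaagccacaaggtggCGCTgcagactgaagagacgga
PCDHGA6, chr5:140753400-140753439: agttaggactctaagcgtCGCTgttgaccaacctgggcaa
PCDHGA7, chr5:140762214-140762253: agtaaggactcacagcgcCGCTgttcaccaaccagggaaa
PCDHGC3, chr5:140855445-140855484: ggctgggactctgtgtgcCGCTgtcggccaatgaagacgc
PCDHGC4, chr5:140864517-140864556: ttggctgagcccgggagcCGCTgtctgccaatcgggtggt
PCDHA4, PCDHA12, PCDHAC1 and PCDHB2 had no counts in any library, and the other genes shown had counts in all 4. Windows with GTGGCGCT stood before PCDHB2, with 0 counts, and before PCDHB3 and PCDHB9, with counts. The presence of these letters therefore did not separate beta genes with counts from those without.

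The clusters differed in whether their genes had any counts at all. The alpha cluster had 15 of 15 genes at 0 in all 4 libraries, the beta cluster had 10 of 15, and the gamma cluster had 0 of 21. In the whole table, 3756 of 19404 protein-coding genes (19.4%) were at 0 in all 4 libraries. Of the gamma genes, 17 of 21 had at least 10 counts in every library. A count of 0 allows a level of up to 0.120 to 0.135 CPM per library, taken as 3 counts of its TMM-scaled library size, and this limit covers counting error only. PCDHAC1 and PCDHAC2, the C-type members at the end of the alpha cluster, were among the genes at 0. The column counted without regard to strand gave the same 15 alpha and 10 beta genes at 0.

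Most of the members at 0 lie side by side. The others, PCDHB4, PCDHB5, PCDHB7, PCDHB10 to PCDHB13 and PCDHB15, are interspersed with beta genes that had counts. From the start of PCDHA1 to the end of PCDHB15, a window of 463 kb, 31 of 37 annotated gene rows were at 0 on the transcript strand. Of the same rows, 29 were at 0 on both strands. Gene rows with no entry in the annotation used, 2282 in all, could not be placed and are left out. The gene rows of the window held 238 fragments on the transcript strand over the 4 libraries, from 5 beta genes and, among the 7 rows that are no members, PCDHB18P, and 3 on the other strand. Fragments on the alpha constant exons are in none of these counts. The stretch from PCDHA1 to PCDHB2 was a run of 18 consecutive protein-coding genes at 0 over 313 kb, of which 17 are members, and it ranked 15 among 1886 such runs on the nuclear chromosomes other than Y. Genes on both sides were counted. ZMAT2, which encodes a protein of the spliceosome and is the protein-coding gene before the window, had 1749 and 1546 counts in DMSO and 1528 and 1578 with SGSS05-NS. TAF7, a subunit of the general transcription factor TFIID that lies between the beta and gamma clusters, had 3202 and 3237 counts in DMSO and 3291 and 4268 with SGSS05-NS. SLC25A2, an intronless mitochondrial carrier gene within the annotated span of TAF7, was at 0 in every library.

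Sequence that recurs elsewhere in the genome can make a fragment map to several places, and such fragments (14.3% to 15.4% per library) were counted for no gene. Recurrence here means an exact copy in the genome of a window of 1 read length. Sequence that differs at a few bases was not included. The share of a member's windows that recur had a median of 0% in the alpha cluster with a maximum of 20.8%, in PCDHA7. It had a median of 4.29% in the beta cluster with a maximum of 22.1%, in PCDHB8, and a median of 0% in the gamma cluster with a maximum of 15.8%, in PCDHGB4. In 9 of 15 alpha genes no window recurred exactly, and all 15 alpha genes were at 0. What part mapping, the DNA of this line, its chromatin or the library preparation had in these values was not tested.

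The beta cluster held 5 genes with a count. PCDHB3, a single-exon gene at chr5:140480057-140483411, had 26 and 46 counts in DMSO and 41 and 41 with SGSS05-NS. PCDHB9, at chr5:140566701-140571114, had 20 and 16 counts in DMSO and 21 and 14 with SGSS05-NS. In both genes the values of the conditions overlapped. PCDHB14 had 2 and 2 counts in DMSO and 2 and 3 with SGSS05-NS, within the limit that a count of 0 allows. PCDHB6 and PCDHB8 had a single count, both in SGSS05-NS replicate 2. The beta cluster as a whole gave 2.33 ± 0.584 CPM in DMSO and 2.72 ± 0.235 CPM with SGSS05-NS (SD, n = 2 each).

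The gamma cluster held between 97.2% and 97.9% of all member counts in each library, and most of them came from its C-type genes. PCDHGC3, whose variable exon is at the far end of the cluster (chr5:140855514-140892544), had 1128 and 1326 counts in DMSO and 1180 and 1200 with SGSS05-NS. PCDHGC4, the next C-type gene (chr5:140864564-140892542), had 592 and 672 counts in DMSO and 513 and 531 with SGSS05-NS. The gene PCDHGC5, the last of the cluster (chr5:140868648-140892542), had 33 and 26 counts in DMSO and 40 and 35 with SGSS05-NS. PCDHGC3 alone made up 49.7% to 53.9% of the gamma counts and PCDHGC4 23.0% to 26.1%, while PCDHGC5 gave 1.00% to 1.83%, so the C-type genes were not counted alike. As summed levels, the 3 C-type genes gave 78.2 ± 11.9 CPM in DMSO and 76.6 ± 2.12 with SGSS05-NS. The 6 B-type genes gave 8.17 ± 1.58 and 7.82 ± 0.669 CPM in the same order (SD, n = 2 each). The 12 A-type genes gave 13.6 and 15.2 CPM in the DMSO libraries and 13.2 and 14.9 CPM with SGSS05-NS. In each subgroup the difference between conditions was smaller than the spread of the DMSO libraries.

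Levels were compared between genes per kilobase of unshared exon, as means over the 4 libraries. The lengths are those of GENCODE 44 and not of the GENCODE 19 exons used for counting. PCDHGC3 was highest at 15.8 ± 1.52 CPM per kb (SD, n = 4), followed by PCDHGC4 at 8.78 ± 1.03 and PCDHGA7 at 1.43 ± 0.0699. The ranges of PCDHGC3, PCDHGC4, PCDHGA7 and the fourth gene, PCDHGB2 at 0.931 ± 0.106 CPM per kb, did not overlap from one to the next. The ranges of PCDHGB2 and PCDHGB7, at 0.771 ± 0.0613 CPM per kb, overlapped. From PCDHGA4, at 0.514 CPM per kb, down to PCDHGA12, at 0.0901, each gene overlapped the next, so no order among those neighbours holds beyond their spread. The single-exon gene PCDHB3 stood among them, at 0.491 ± 0.125 CPM per kb, with PCDHGC5 at 0.502 ± 0.102 just above it and PCDHGA9 at 0.455 ± 0.0767 just below. PCDHB9, at 0.171 ± 0.0343 CPM per kb, overlapped PCDHGA5 at 0.174 ± 0.0473. Over the whole exonic length, shared bases included, PCDHGC3 measured 9.48 CPM per kb and PCDHGC4 4.93, and the order of the first 4 genes was the same. On that scale PCDHB3, which has no shared bases and stays at 0.491 CPM per kb, moved from place 8 to place 5, above PCDHGB7 at 0.433 and PCDHGC5 at 0.284, and PCDHB9 moved from place 19 to place 13. The place of the beta genes among the gamma genes thus shifted with the length used. The whole length includes shared bases from which no fragment could be counted, which lowers the gamma values alone.

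With SGSS05-NS no member passed the test. Of the 51 members, 21 had enough counts to be tested, 2 in the beta cluster and 19 in the gamma cluster, and none was called at an adjusted p under 0.001 when edgeR's quasi-likelihood p-values were adjusted by the method of Benjamini and Hochberg. Over all 16468 genes tested, 14.5% were called, 6.37% higher and 8.14% lower. At an adjusted p under 0.05 the count of members was also 0, against 46.3% of all genes. None of the members had an unadjusted p under 0.05, against 53.5%. DESeq2 and limma voom also called 0 members at either p, but DESeq2 gave no adjusted p for 2 of the 21, PCDHGB6 among them. Most members had few counts, with 19 of the 21 tested under a mean of 5 CPM. Among the 5496 tested genes under that level, 9.06% were called at 0.001 and 42.2% had an adjusted p under 0.05. An exact permutation test of 2 libraries against 2 cannot go below p = 0.33, so single genes were judged by the fit over all genes alone.

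The log2 fold change had a median of -0.04 over the 19 gamma genes, with a range from -0.60 to 0.76, and a median of 0.16 over the 2 beta genes. The median over all genes tested was 0.01. Of the 21 members tested, 11 had a positive value and 10 a negative one. In 14 of 21 members the 95% confidence interval lay within a log2 change of 1 in either direction, and in the remaining 7 it reached past that size in at least 1 direction.

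Of the C-type genes, PCDHGC3 and PCDHGC4 had the most counts and the narrowest intervals of all members tested. PCDHGC3 measured 45.0 and 56.8 CPM in DMSO and 53.2 and 51.0 with SGSS05-NS, and both SGSS05-NS values lay between those of DMSO. Its log2 fold change was 0.04 (95% interval -0.22 to 0.29). For PCDHGC4 the levels were 23.6 and 28.8 CPM in DMSO and 23.1 and 22.6 with SGSS05-NS, lower in both, with a log2 fold change of -0.20 (-0.46 to 0.07) and an adjusted p of 0.216 in edgeR's quasi-likelihood test. PCDHGC5 measured 1.32 and 1.11 CPM in DMSO and 1.80 and 1.49 with SGSS05-NS, higher in both, with a log2 fold change of 0.43 (-0.19 to 1.05) and an adjusted p of 0.234 by the same edgeR test. Neither difference passed.

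Among the A-type and B-type gamma genes, the smallest adjusted p in edgeR's quasi-likelihood test was 0.0962, for PCDHGA6. It had 52 and 46 counts in DMSO and 24 and 37 with SGSS05-NS, or 2.07 and 1.97 against 1.08 and 1.57 CPM, without overlap, and a log2 fold change of -0.60 (95% interval -1.21 to 0.01). PCDHGB6 had 7 and 11 counts in DMSO and 13 and 16 with SGSS05-NS, also without overlap, and a log2 fold change of 0.76 (-0.15 to 1.67). The counts of PCDHGA5 overlapped between conditions, with 10 and 16 in DMSO and 14 and 19 with SGSS05-NS and a log2 fold change of 0.42 (-0.44 to 1.28). PCDHGA7, the most abundant A-type gene, had 115 and 116 counts in DMSO and 103 and 104 with SGSS05-NS. Scaled to library size these were 4.58 and 4.97 CPM against 4.64 and 4.42, which overlapped, and the log2 fold change was -0.07 (-0.47 to 0.32).

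For the single-exon beta genes the intervals were wider than those of PCDHGC3 and PCDHGC4. PCDHB3 had a log2 fold change of 0.27 (95% interval -0.42 to 0.95) from 1.04 and 1.97 CPM in DMSO and 1.85 and 1.74 with SGSS05-NS. PCDHB9 had 0.05 (-0.74 to 0.84) from 0.797 and 0.685 CPM in DMSO and 0.946 and 0.595 with SGSS05-NS. Both beta genes overlapped between conditions, as did 10 of the 19 gamma genes. The libraries of the conditions did not overlap in 9 of 21 members tested, 4 lower and 5 higher with SGSS05-NS, against 74.7% of all genes tested (36.9% lower and 37.8% higher). With 2 beta genes tested, a difference between the single-exon genes and the clusters with shared exons in their response was not tested, and the alpha genes gave no value to compare.

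**Figure D1:**
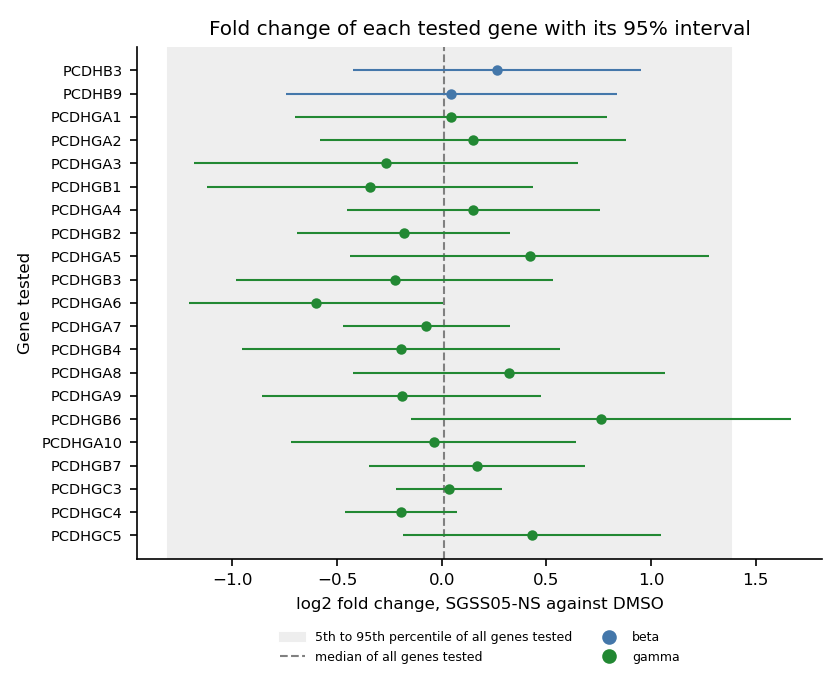
Log2 fold change of SGSS05-NS over DMSO with its 95% confidence interval for the 21 members tested (2 beta, 19 gamma), with the median (dashed line) and the 5th to 95th percentile (shading) of all genes tested. Every interval includes 0, and the values run from -0.60 for PCDHGA6 to 0.76 for PCDHGB6.

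Some of the factors that act on these promoters changed. From a list of 24 genes for promoter choice and chromatin, all tested, 1 rose and 5 fell at an adjusted p under 0.001 in edgeR's quasi-likelihood test, against 6.37% higher and 8.14% lower over all genes tested, and 18 did not pass. The median log2 fold change was -0.20, against 0.01 over all genes. STAG1, a subunit of cohesin, measured 152 and 144 CPM in DMSO and 57.0 and 60.2 with SGSS05-NS, a log2 fold change of -1.33 ± 0.09 (SE). CTCF, the zinc finger protein that binds these promoters and their enhancers, measured 127 and 129 CPM in DMSO and 86.1 and 74.3 with SGSS05-NS, a log2 fold change of -0.68 ± 0.10. The cohesin subunit STAG2 (-0.59) and the cohesin regulators PDS5B (-0.82) and PDS5A (-0.50) also fell. REST, a repressor of neuronal genes, rose from 34.2 and 42.3 CPM to 85.2 and 83.6, a log2 fold change of 1.14 ± 0.11. The cohesin ring subunit RAD21 measured -0.12 ± 0.11 on the log2 scale and did not pass. Scaled by library size alone, 2 genes of this list fell. Whether these levels bear on the members was not tested.

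Non-clustered protocadherins and their relatives, single genes outside the clusters with no shared constant exons, were tested in 13 of 20 cases, and 3 rose and none fell at the same threshold, against 6.37% higher and 8.14% lower over all genes. The median log2 fold change was 0.23. PCDH10, a delta protocadherin of the nervous system, rose from 1.71 and 1.75 CPM to 10.5 and 9.91, a log2 fold change of 2.55 ± 0.19 (SE). FAT1, a giant cadherin, rose from 99.1 and 95.2 CPM to 203 and 189, a log2 fold change of 1.01 ± 0.09. The level of PCDH9, another delta protocadherin, rose from 23.8 and 30.3 CPM to 48.0 and 61.0, a log2 fold change of 1.01 ± 0.14. The level of PCDH10 in DMSO was close to that of PCDHB3, so a gene in this range could pass the test with a change of that size. With any 1 library left out, 1 or 2 genes of this list were called lower, FAT3 and PCDH18 having the smallest p among those with a negative value.

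Of 28 genes for adhesion and signalling partners of clustered protocadherins, all tested, none rose and 6 fell, against 6.37% higher and 8.14% lower over all genes. The median log2 fold change was -0.28. PTK2, the focal adhesion kinase that the alpha and gamma tails are known to bind, fell from 158 and 156 CPM to 74.7 and 79.5, a log2 fold change of -1.03 ± 0.09 (SE). WASF3, a member of the WAVE family of actin regulators, fell from 52.1 and 55.5 CPM to 28.8 and 29.6 (-0.88 ± 0.10). NLGN1, a synaptic adhesion protein, fell from 7.85 and 7.66 CPM to 1.80 and 2.76 (-1.76 ± 0.22). CDH2, FYN and ROCK2 also fell.

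The neighbours of the clusters on 5q31 were tested in 21 of 22 cases. Of these, 2 rose and none fell, against 6.37% higher and 8.14% lower over all genes. The median log2 fold change was 0.14. SPRY4, an inhibitor of receptor tyrosine kinase signalling, rose from 16.9 and 15.6 CPM to 37.4 and 30.4 (1.06 ± 0.13, SE), and RELL2 rose from 10.5 and 11.6 CPM to 20.2 and 21.0 (0.90 ± 0.13). CD14, a receptor for bacterial lipopolysaccharide, measured 0.279 and 0.385 CPM in DMSO and 1.13 and 1.23 with SGSS05-NS and did not pass, with an adjusted p of 0.00192 in edgeR's quasi-likelihood test.

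**Figure D2:**
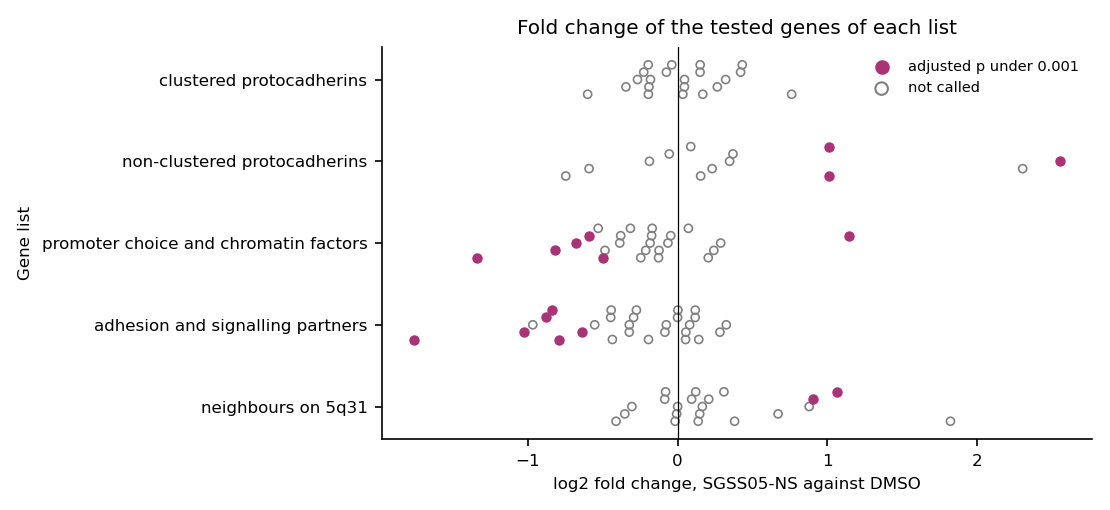
Log2 fold change of SGSS05-NS over DMSO for the tested genes of each list, with filled points for genes called at an adjusted p under 0.001. The members run from -0.60 to 0.76 with none called, and the other lists hold called genes from -1.76 (NLGN1) to 2.55 (PCDH10).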

How the data were processed

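RNA of SY5Y cells was sequenced as paired reads, with 2 libraries per condition, grouped by their labels; the study's methods describe independent biological replicates. The authors used Trimmomatic 0.30 for trimming and STAR 2.4.2a for alignment to hg19 (GENCODE 19) and deposited raw fragment counts per gene, per the labels and methods, in 3 columns (without strand, forward, reverse). The labels and the methods name different library kits. The reverse column was used, since only 0.0376% to 0.587% of members' fragments per library lay on the forward strand. The 4 summary rows per file stayed out of library sizes: ambiguous fragments made up 2.32% to 2.58% of all fragments, and those outside exons 12.3% and 12.4% in DMSO and 15.3% and 16.1% with SGSS05-NS.

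Names, exons and positions came by identifier from GENCODE 44 on GRCh37. Counts were tested by the quasi-likelihood method of edgeR 4.0.16 under R 4.3.3 (TMM scaling, filterByExpr, Benjamini-Hochberg over 16468 genes, threshold 0.001 as in the study). Levels are TMM-scaled CPM. Alternatives were DESeq2 1.42.0, voom of limma 3.58.1, the likelihood ratio test of edgeR, other scalings, filters and thresholds, unstranded counts, the replicate block and each library left out. The pairs of replicates differed by more than counting alone gives (chi-square of 8.76 and 11.8 per degree of freedom).

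The members, gene lists and rule for named genes were chosen with earlier results of these data known. The rule named the C-type genes, the tested beta genes, the 3 highest members of a cluster by level, the 5 gamma genes with the smallest p and the 3 genes of each list with the smallest p. Values of other members (PCDHB6, PCDHB8, PCDHGB2, PCDHGB7, PCDHGA4, PCDHGA9 and PCDHGA12) were added after they were seen. The same holds for CTCF, RAD21, STAG2, PDS5A and the neighbours other than SPRY4, RELL2 and CD14.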

Additional observations from a re-analysis of the deposited data

Results flagged for a closer look

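PCDHGC3, at the far end of the gamma cluster, had fragments on the strand opposite to its transcript, in the column that no comparison used. They numbered 7 over both SGSS05-NS libraries and 3 over both DMSO libraries, above the level of the controls, beside 4834 on the transcript strand over all 4. PCDHGC4 had 2 and 0 such fragments under DMSO and 2 and 4 under SGSS05-NS, and PCDHGC5 had 0 and 0 against 0 and 4. All members together had 4 and 1 under DMSO and 9 and 14 under SGSS05-NS. Some neighbours outside the clusters also had more opposite-strand fragments with SGSS05-NS. DIAPH1 had 3 and 2 under DMSO and 11 and 11 under SGSS05-NS, and ARAP3 had 1 and 1 against 4 and 21. Others did not, such as TAF7 with 5 and 3 against 6 and 3, and ZMAT2 with 3 and 1 against 2 and 1. Over all genes the same column held 1241096 and 1153081 fragments under DMSO and 1142161 and 1266867 under SGSS05-NS. None of these differences was tested.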

How the results depend on the processing

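No member was called under any alternative tried, and for the summary counts of members and the median log2 fold changes every alternative stayed within the limits set for an unchanged value. Those limits were wide. Without a filter the beta median went from 0.16 to 0.36, over 5 genes. The gamma median changed sign there, from -0.04 to 0.01, and both still counted as unchanged. An unadjusted p under 0.05 was reached by 1 member each under the likelihood ratio test, without a filter, with at least 10 counts in every library, without regard to strand, with the replicate block, without DMSO replicate 1 and without SGSS05-NS replicate 2, and by none under the other alternatives. With a library left out, the remaining one was assumed to vary like the other condition. The median log2 fold change then ranged from -0.14 to 0.11 over the gamma genes and from -0.05 to 0.35 over the beta genes. Of the 9 tested members named one by one, none of them called, 3 then turned in sign: PCDHB3 (-0.14 without DMSO replicate 1), PCDHB9 (-0.07 without DMSO replicate 2, -0.32 without SGSS05-NS replicate 1) and PCDHGC3 (-0.13 without DMSO replicate 1, -0.0017 without SGSS05-NS replicate 1). Without regard to strand PCDHGC3 was at -0.00099. Low counts, under 5 CPM on average in 19 of the 21 members tested, limit what could be seen.

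The counts of listed genes moved with the threshold, and the cause of the other moves was not tested. At adjusted p under 0.01, 8 promoter and chromatin factors, 2 non-clustered protocadherins, 11 partners and 2 neighbours were lower and 5 neighbours higher. At 0.05, 11, 2, 15 and 3 were lower and 3, 6, 1 and 6 higher, in the same order. Without a filter, 9, 2, 12 and 1 were lower and 4 neighbours higher. Scaled by library size alone, 2 promoter and chromatin factors were lower. The likelihood ratio test called 2 non-clustered protocadherins lower and 4 neighbours higher, DESeq2 called 1 non-clustered protocadherin lower, and without regard to strand 1 non-clustered protocadherin and 1 neighbour were lower. With 1 library left out, between 1 and 2 non-clustered protocadherins were lower. Over all genes, 1049 higher and 1341 lower became 2022 and 2267 with the likelihood ratio test, 2034 and 2570 without a filter, 2321 and 2616 at 0.01 and 3728 and 3903 at 0.05. The summed gamma level with SGSS05-NS, 98.4 CPM, ranged from 96.8 to 101 CPM.

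The replicate numbers are shared between conditions, but no label ties them to a common source, and deviations of same-numbered libraries correlated at 0.053. With the replicate block, 2 non-clustered protocadherins were lower, 4 neighbours higher and, over all genes, 1759 higher and 2007 lower, no member was called, and the median was -0.04 over the gamma genes and 0.16 over the beta genes.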
